A study of Mus musculus with 9 samples.

Results

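The genes described here are 8 matrix, adhesion and chemokine genes that the authors listed as markers of monocyte and macrophage populations of mouse bone marrow: Fn1, F13a1, Itga1, Crip1, Lgals3, Ccl2, Ccl6 and Ccl9. They were chosen by symbol from the authors' table of top marker genes, with the listings of that table in view. The 8 genes fill 12 of its 293 entries and make up 8 of its 234 different genes. An entry pairs a gene with one of 17 cell populations and sets the cells of that population against all other cells. Because the values that chose the genes are the values of these entries, every score and share below is a description without a test.

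Single-cell RNA-Seq was performed on bone marrow mononuclear cells from 9 C57BL/KaLwRij mice, a strain in which the 5TGM1 mouse myeloma line grows, all aged 12 weeks per the labels. The labels assign 2 mice to Control, 3 to PBS and 3 to CST6, and 1 sample, which has no label for its agent, was left unassigned. Controls received no tumor cells, mice of the PBS group received 5TGM1 cells and vehicle, and mice of the CST6 group received 5TGM1 cells and recombinant mouse Cst6, an inhibitor of cysteine proteases. Because 1 sample with a PBS label is titled in series with the controls, single labels are not certain. The marrow was taken through Ficoll and the GFP+ myeloma cells were sorted out. In mice with tumor cells, the cells are thus the surroundings of the tumor, and in controls they are marrow without a tumor. Populations named for neutrophils are among the cells despite the Ficoll step. The table pools all mice and has 0 columns of values per sample or group. Changes with tumor or CST6 were therefore not analysed here, no value has a replicate error, and the table gives neither the depth nor the number of cells.

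Monocytes arise in the marrow from dividing progenitors, leave it through the blood and become macrophages in tissue. On this path they make proteins that build and crosslink matrix, proteins that hold cells to matrix, and CC chemokines, small secreted proteins that draw leukocytes through G protein-coupled receptors. Monocytes of the marrow are also precursors of osteoclasts, the cells that resorb bone.

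For each entry the authors' table gives an AUC, the area under the receiver operating characteristic curve. It is 0.5 for a gene whose level does not separate the population from the other cells and 1 for a gene that separates them fully. Beside it stand 2 shares, the percentage of the population's own cells in which the gene had a value above 0 (the share inside) and that of the remaining cells (the share outside). A population has at most 20 entries, in descending order of AUC, and the lowest AUC of the table is 0.801. A gene that is not listed for a population was not among its top markers, and its level there is not known from this table.

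Macrophages listed 7 of the 8 genes, Monocyte prog I listed 4 and Monocyte prog II listed 1. Of all 234 genes of the table, 8.55% were listed for Macrophages, and 29.9% for any of the 4 populations named for monocytes or macrophages. The 8 genes were picked from these lists, so nothing is read from their number. The population named Monocytes listed 0 of the 8, and so did all other populations, 14 in total. The 3 populations with entries differ in what else leads their lists. Ctss, a cathepsin, holds the first place in Macrophages (AUC 0.910), F13a1 itself in Monocyte prog I (0.902), and Prtn3, a primary granule protease, in Monocyte prog II (0.918). The last places are held by S100a4 (0.818), H1f4 (0.804) and Hspd1 (0.804).

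**Figure D1:**
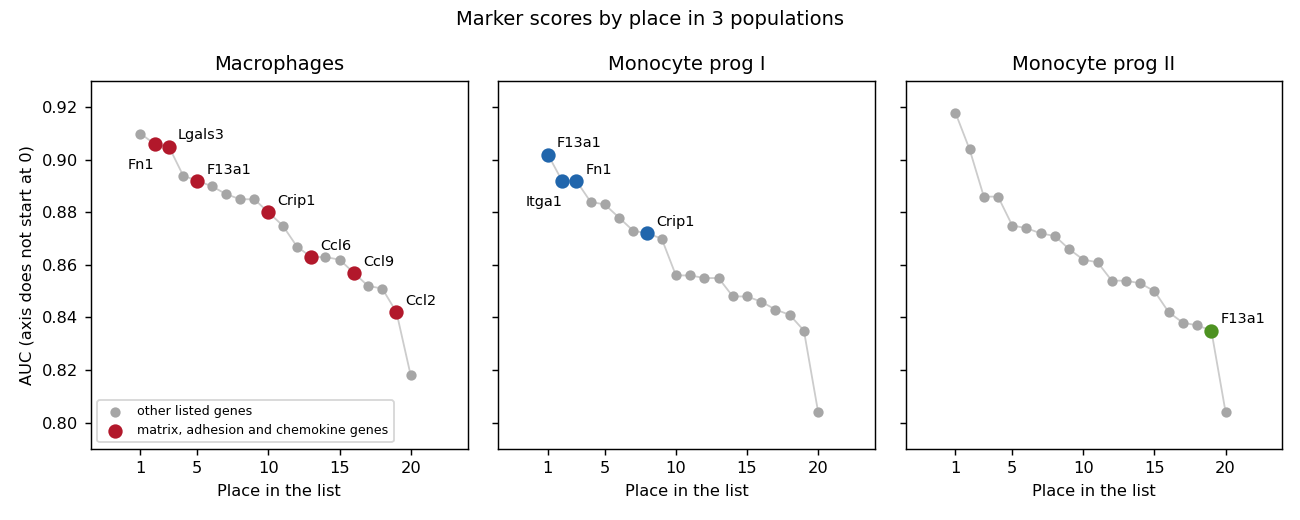
Authors' AUC (vertical axis, which does not start at 0) against place in the list (horizontal axis) for the 20 genes of each of 3 populations, with matrix, adhesion and chemokine genes in color and all other listed genes in grey. The genes lie from place 2 to place 19 in Macrophages, at places 1, 2, 3 and 8 in Monocyte prog I, and at place 19 in Monocyte prog II.

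The names of the populations were checked against marker lists. Of 10 monocyte genes, 4 were listed for Macrophages, among them Ms4a6c, Ms4a4c and S100a4, 3 for Monocytes and 1 for Monocyte prog I. Of 10 macrophage genes, 1 was listed for Macrophages, while Adgre1, which encodes F4/80, and the complement C1q genes were listed nowhere. Of the 10 monocyte genes, 5 were in the table, and Ly6c2, Ccr2, Cd14, Fcgr3 and Cx3cr1 were listed nowhere. The 1 macrophage gene listed for Macrophages is also among the 4 of the monocyte list. These counts cover top entries only, so they do not settle what kind of cell the population named Macrophages is. The authors' name is kept here only as a name. Monocyte prog I listed 7 of 11 cell cycle genes, among them Tubb5, Top2a and Mki67, and Macrophages listed 0. Immature Neutrophils I listed 6 of the 11, so such genes are not particular to Monocyte prog I. Monocyte prog II listed 4 of 5 primary granule genes (Prtn3, Mpo, Ctsg and Elane) and 0 of the 10 monocyte genes. Myeloid prog listed the same 4, with AUC from 0.977 to 0.991, against 0.854 to 0.918 in Monocyte prog II. These genes are therefore not particular to Monocyte prog II. Macrophages, Monocyte prog I and Monocyte prog II held 0 entries of the neutrophil, B cell, T and NK cell, dendritic, megakaryocyte, erythroid and stromal lists.

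Fn1 encodes fibronectin, a matrix glycoprotein that cells bind through integrins. The gene lies on chromosome 1 (mm10, chr1:71585520-71653200, minus strand). In Macrophages, Fn1 took place 2 with an AUC of 0.906. Fn1 had a value above 0 in 96.7% of the cells inside and 62.8% of all other cells, a difference of 33.9 percentage points. In Monocyte prog I, Fn1 took place 3 with an AUC of 0.892. Its shares there were 97.1% inside and 63.3% outside, a difference of 33.8 points. Of the 8 genes, Fn1 had the largest difference of shares in both populations, and by that difference it ranked at place 2 of 20 in each. The AUC was 0.014 higher in Macrophages than in Monocyte prog I. The differences of shares lay 0.1 points apart, which is within the 0.2 points that rounding of the shares allows.

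F13a1 encodes the catalytic A subunit of coagulation factor XIII, a transglutaminase that crosslinks fibrin and also fibronectin. The gene lies on chromosome 13 (mm10, chr13:36867178-37050244, minus strand). F13a1 was the only gene of the 8 listed for 3 populations, a number of listings that 8 of the 234 genes reach or exceed. It took place 1 in Monocyte prog I with an AUC of 0.902 and shares of 99.2% inside and 73.2% outside. It took place 5 in Macrophages with an AUC of 0.892 and shares of 98.1% and 72.9%. In Monocyte prog II it took place 19 with an AUC of 0.835, next to last in the list, although 98.9% of the cells inside had a value against 74% outside. The share inside thus differed by at most 1.1 points among the 3 populations, while the AUC was 0.067 lower in Monocyte prog II than in Monocyte prog I and 0.057 lower than in Macrophages. By AUC the order was Monocyte prog I, Macrophages, Monocyte prog II. It was the same by difference of shares (26, 25.2 and 24.9 points) and by ratio of shares (1.36, 1.35 and 1.34). By the share inside alone, Monocyte prog II (98.9%) came before Macrophages (98.1%). The other cells differ between populations, so these measures do not set the 3 populations against the same cells. By difference of shares F13a1 ranked only at place 9 in Monocyte prog I, place 11 in Macrophages and place 9 in Monocyte prog II, so its first place in Monocyte prog I belongs to the AUC and not to the shares.

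Reference sequence around 1 of the 2 F13a1 starts is shown because a word that its promoter holds came up again at other genes of the set. RefSeq (GRCm38.p6) windows from 250 bases before to 50 after the start of transcription were matched by symbol for 6 of the 8 genes, in 7 windows, since F13a1 has 2. Each was searched on both strands for 3 words known from myeloid or general promoters: AGGAAGT, of the type bound by PU.1, TATAAA, the TATA box, and TTGCNNAA, of the type bound by C/EBP factors. AGGAAGT was in 3 of the 7 windows (1 each of F13a1, Itga1 and Ccl6) and in 9.35% of all 32851 windows of the table. TATAAA was in 1 of the 7 (Ccl9) and in 13.6% of all windows, and TTGCNNAA in 0 of the 7 and in 10.8% of all. A match is only a match of letters, and no factor binding was measured. F13a1 has AGGAAGT in only 1 of its 2 windows, the one that starts at position 37049213. The window at 37050244, the start of the gene as given above, does not hold it. The stretch below, from the first of these windows, is chr13:37049164-37049289, minus strand, with AGGAAGT in capitals at positions -36 and 15 relative to that window's start.
F13a1: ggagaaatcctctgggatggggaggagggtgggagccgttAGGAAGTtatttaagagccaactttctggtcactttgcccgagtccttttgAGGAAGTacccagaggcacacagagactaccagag

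Other genes of the matrix group stood beside these. Of a list of 25 genes of matrix and its crosslinking, 7 were in the table, and 4 of these were listed for Macrophages. Besides Fn1 and F13a1 they were Emilin2, an elastin-associated glycoprotein, at place 8 (AUC 0.885, 96.5% inside and 63.1% outside) and Tgfbi, a secreted matrix protein, at place 9 (AUC 0.885, 97.1% and 67.5%). The other 3, the proteases Mmp9 (AUC 0.972), Mmp8 (0.965) and Adam8 (0.878), were listed for Mature Neutrophils II. Within this list, the proteases were therefore in another population than the other genes, in a table where a population holds at most 20 genes. This does not extend to all listed proteases. The cathepsin Ctss, in Macrophages, and the primary granule genes Prtn3, Ctsg and Elane, in Monocyte prog II beside F13a1, were not in this list.

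Itga1 encodes the alpha chain of a collagen-binding integrin, which pairs with the beta chain encoded by Itgb1. The gene lies on chromosome 13 (mm10, chr13:114953096-115101964, minus strand). It was listed only for Monocyte prog I, at place 2, with an AUC of 0.892 equal to that of Fn1 at the printed precision. Of the cells inside, 93.3% had a value, against 65.6% outside, a difference of 27.7 points. This was the lowest share inside among the 4 genes of that population, next to 99.2% for F13a1 and Crip1 and 97.1% for Fn1. Of 15 integrin genes, 3 were in the table, each in another population. The others were Itga4, a chain of the integrin that binds VCAM-1, in Monocytes (place 15, AUC 0.819, 96.9% and 85.4%) and Itga2b, the platelet integrin chain, in Eosinophil/Basophil prog (AUC 0.964, 95.9% and 25.6%). Upstream of the Itga1 start, chr13:115102110-115102196 on the minus strand holds the same word as F13a1 on its other strand, in capitals, at position -192.
Itga1: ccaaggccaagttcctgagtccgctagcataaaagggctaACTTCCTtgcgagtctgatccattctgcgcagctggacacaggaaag

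Crip1 encodes a small protein made of a single zinc-binding LIM domain. The gene lies on chromosome 12 (mm10, chr12:113146316-113153879, plus strand). In Macrophages it took place 10 with an AUC of 0.880 and shares of 98.9% inside and 69.6% outside. In Monocyte prog I it took place 8 with an AUC of 0.872 and shares of 99.2% and 70.1%. The AUC was 0.008 higher in Macrophages, and the differences of shares, 29.3 and 29.1 points, lay no further apart than rounding allows. Of 8 genes for LIM-only proteins, 3 were in the table, and Crip1 was the only one in a monocyte or macrophage population.

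Lgals3 encodes galectin-3, a lectin that binds beta-galactosides on glycoproteins of cells and matrix and that macrophages are known to make. The gene lies on chromosome 14 (mm10, chr14:47367751-47386160, plus strand). It was listed only for Macrophages, at place 3, with an AUC of 0.905. It had the highest shares of the 8 genes on both sides, with 99.6% of the cells inside and 79.4% of all others. The difference of 20.2 points was the smallest of the 12 entries. By that difference Lgals3 ranked at place 17 of 20 in Macrophages, against place 3 by AUC. Of 7 galectin genes, the other one in the table was Lgals1, listed for Monocyte prog II at place 9 (AUC 0.866, 99.7% inside and 68.1% outside) and for Lymphomyeloid prog I. The 2 listed galectin genes thus marked different populations.

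The 3 chemokine genes were listed only for Macrophages, and all 3 in the lower part of the list. Ccl6, a mouse chemokine of myeloid cells, took place 13 with an AUC of 0.863 and shares of 96.1% inside and 73.1% outside. Ccl9, a chemokine that mouse osteoclasts and myeloid cells make and that acts through Ccr1, took place 16 with an AUC of 0.857. Its shares were 91.6% inside and 63.4% outside. Ccl2, the main ligand of Ccr2, through which monocytes leave the marrow, took place 19 with an AUC of 0.842. Its shares were 88.9% inside and 63.9% outside. The AUC values of Ccl6, Ccl9 and Ccl2 were the 3 lowest of the 7 entries in Macrophages. The order changed with the measure. By difference of shares Ccl9 led (28.2 points, place 9), followed by Ccl2 (25, place 12) and Ccl6 (23, place 16). More than 1 in 10 cells of Macrophages had no value for Ccl2, and fewer than 1 in 20 had none for Ccl6.

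The 3 chemokine genes lie on chromosome 11, Ccl2 at chr11:82035571-82037453 on the plus strand, Ccl9 at chr11:83572919-83578636 and Ccl6 at chr11:83587882-83593087, both on the minus strand (mm10). Ccl9 and Ccl6 are neighbors, 9.245 kb apart with 0 annotated genes between. Ccl2 lies 1.54 Mb from Ccl9, with 61 annotated genes between, 31 of them protein-coding. Chromosome 11 holds 11 genes with a Ccl symbol, of which 5 were in the table. Besides these 3, Ccl5 was listed for T/NK cells (AUC 0.976, 97.3% inside and 41.5% outside) and Ccl4 for Eosinophil/Basophil prog (AUC 0.848, 90% and 65.8%). Ccl7, Ccl11, Ccl12, Ccl8, Ccl1 and Ccl3 were not listed. Of 13 chemokine receptor genes only Cxcr2 and Ccr9 were in the table, in Mature Neutrophils II and Dendritic cells. Ccr1 and Ccr2 were not listed for any population.

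The start regions of Ccl6 and Ccl9 are printed because they are the only pair with a long like stretch among the windows matched. A local alignment of all pairs of the 7 windows, 21 in number, gave the highest score, 71, for Ccl6 with Ccl9, over 74 aligned positions of which 59 (79.7%) were identical and 7 were gaps. The next pair reached a score of 27 over 17 positions. Capitals mark the 4 blocks of at least 6 identical bases, 42 bases in all. The Ccl6 stretch is chr11:83593073-83593146 and the Ccl9 stretch chr11:83578588-83578654, both on the minus strand, from 59 bases before the Ccl6 start and from 18 bases before the Ccl9 start. The word ACTTCCT, the other strand of AGGAAGT, runs over the end of the first block in Ccl6, at position -48, and is not in the window of Ccl9. TATAAA was found in the Ccl9 window only, upstream of this stretch.
Ccl6: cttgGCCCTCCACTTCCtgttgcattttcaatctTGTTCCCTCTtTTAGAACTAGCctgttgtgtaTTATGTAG
Ccl9: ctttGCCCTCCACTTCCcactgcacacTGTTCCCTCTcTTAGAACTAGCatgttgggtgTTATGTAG

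**Figure D2:**
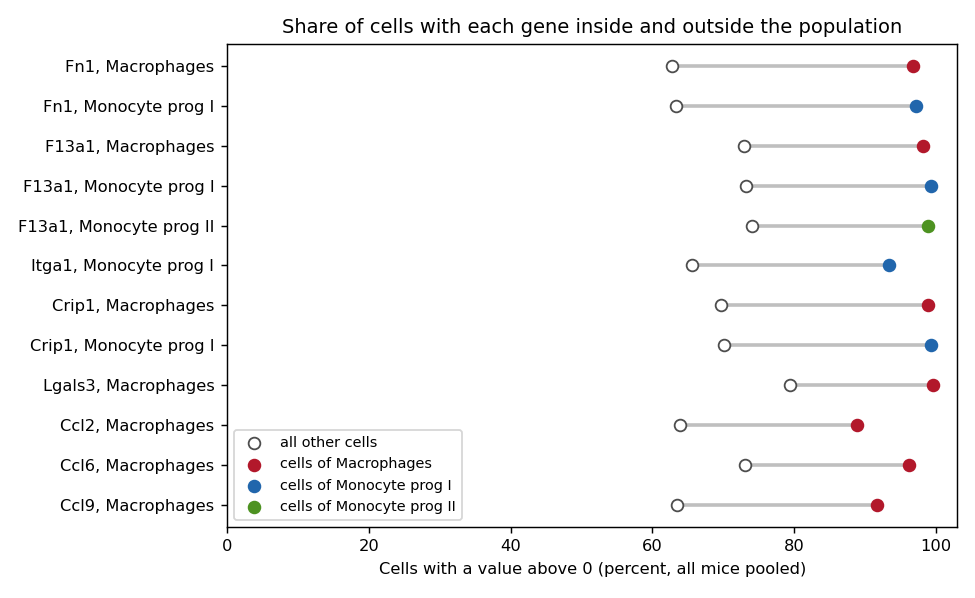
Percent of cells with a value above 0 (horizontal axis) for the 12 entries of the 8 genes, with filled points for the cells of the population and open points for all other cells, all mice pooled. Shares run from 88.9% to 99.6% inside and from 62.8% to 79.4% outside, and the closest pair of points is that of Lgals3 in Macrophages.

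Across the 12 entries the median AUC was 0.886, with a range from 0.835 to 0.906, beside a median of 0.874 over all 293 entries. The median difference of shares was 26.85 points for the 12 entries and 28.1 points for all. Within Macrophages the medians of the 7 genes and of the other 13 were 0.880 and 0.875 for the AUC, and 25.2 and 26.8 points for the difference of shares. Within Monocyte prog I the 4 genes had a median AUC of 0.892 against 0.855 for the other 16, and a median difference of shares of 28.4 against 23.05 points.

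All 8 genes had a value in most cells outside their populations. The outside share was highest for Lgals3 (79.4%) and lowest for Fn1 (62.8%), with a median of 69.85% over the 12 entries. Such shares were common in the table, where the median over all entries was 67.5%. Genes of other lineages had them too. Cd79b, a signaling subunit of the antigen receptor of B cells, had a value in 68.2% of the cells outside B cells, while Cd3e, a chain of the T cell receptor complex, had one in 20.5% of the cells outside T/NK cells. A share of cells with a value is therefore not a share of cells that express the gene. Whether the authors took the shares from read-based or from batch-integrated values is not stated.

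An AUC can be set beside the value that the shares alone would give, namely 0.5 + (share inside − share outside)/2, with shares as fractions. This share-only AUC was between 0.601 (Lgals3 in Macrophages) and 0.6695 (Fn1 in Macrophages) for the 12 entries, well under the deposited AUC in each. The remainder was largest for Lgals3, at 0.304, a size that 35 of all 293 entries reach or exceed. The shares alone gave 24.9% of the AUC above 0.5 for Lgals3, against 41.7% for Fn1 in Macrophages. For F13a1 the remainder was 0.272 in Monocyte prog I, 0.266 in Macrophages and 0.2105 in Monocyte prog II, and the share-only AUC was 0.63, 0.626 and 0.6245 in the same order. Itga1 had a remainder of 0.2535, the second of the 4 genes in Monocyte prog I after F13a1. The 3 chemokine genes had remainders of 0.248 (Ccl6), 0.217 (Ccl2) and 0.216 (Ccl9). The remainder was larger than the share part in 12 of 12 entries of the 8 genes and in 231 of all 293.

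The split assumes that AUC and shares came from the same values. In 1 of the 293 entries, Cd3e in T/NK cells, the deposited AUC of 0.974 was above 0.967, the highest that its shares allow when cells without a value above 0 are tied, so for that entry the AUC and the shares cannot both come from the same values tied in this way. All entries stand in 1 table, so the assumption is in doubt for the 12 entries too, and the share-only AUC and the remainder are given as arithmetic on the deposited values, not as parts of the score with a meaning of their own.

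**Figure D3:**
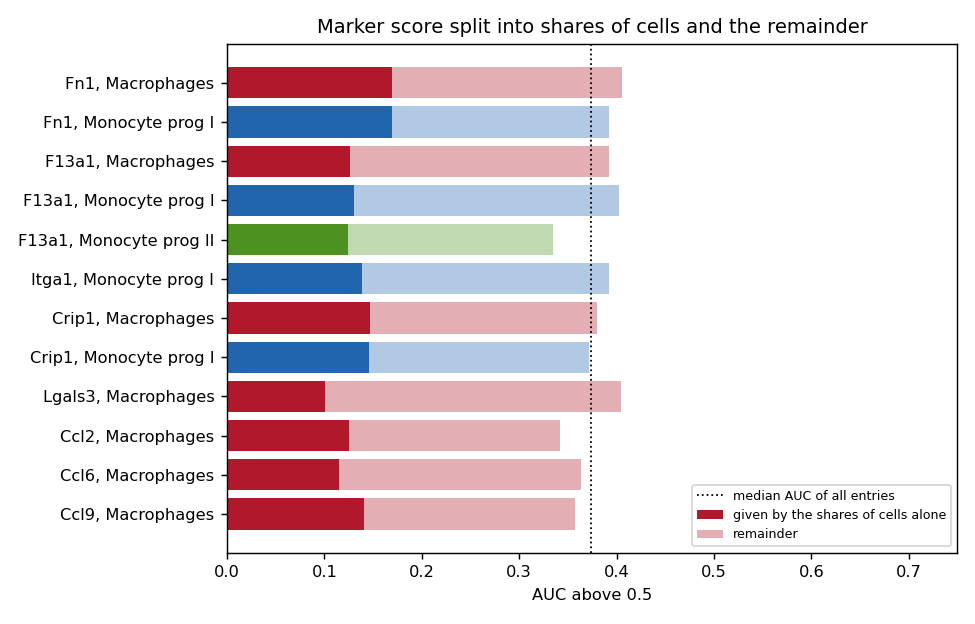
AUC above 0.5 (horizontal axis) for the 12 entries of the 8 genes, split into the part that the shares of cells alone would give (dark) and the remainder (light), colored by population, with the median AUC of all 293 entries as a dotted line. The light part is the longer one in every bar, and Lgals3 in Macrophages has the shortest dark part.

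The table gives no cell numbers, but the shares hold information on them. For a gene listed for several populations, the share inside and the share outside must combine to the same share of all cells in each entry. With 50 genes listed for 2 or more populations, 1 set of population sizes met the shares of all 293 entries within rounding, and linear programming gave the range of each size. This step was chosen after the data had been seen. Macrophages came to 10.6 to 11.6% of all cells, Monocyte prog I to 9.05 to 10.1%, Monocyte prog II to 6.37 to 7.41% and Monocytes to 1.52 to 2.82%. Macrophages exceeded Monocyte prog I by 1.46 to 1.74 points. These ranges cover rounding of the shares only, pool all mice, and say nothing on differences between groups.

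From these sizes, Fn1 had a value in 66.3 to 66.8% of all cells, F13a1 in 75.6 to 75.8% and Lgals3 in 81.5 to 81.8%. Of all cells with a value for Fn1, 15.4 to 16.9% lay in Macrophages, 13.2 to 14.7% in Monocyte prog I and 68.5 to 71.4% in neither. For F13a1 the 3 listed populations together held 34.3 to 37.4% of the cells with a value, and 62.6 to 65.7% lay elsewhere. For Crip1, 70.6 to 73.3% lay outside its 2 populations. Itga1 had 12.4 to 13.8% of its cells with a value in Monocyte prog I. Among the genes listed for Macrophages alone, that population held 14.6 to 15.98% of the cells with a value for Ccl9, 14.1 to 15.5% for Ccl2, 13.4 to 14.8% for Ccl6 and 12.9 to 14.2% for Lgals3. Most cells with a value thus lay outside the marked populations for each of the 8 genes. The same part was not computed for the other genes of the table. High outside shares were common there (median 67.5% over all 293 entries), so this is not read as particular to the 8 genes. Outside all 3 of its populations, F13a1 still had a value in 66.5 to 67.4% of the cells.

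**Figure D4:**
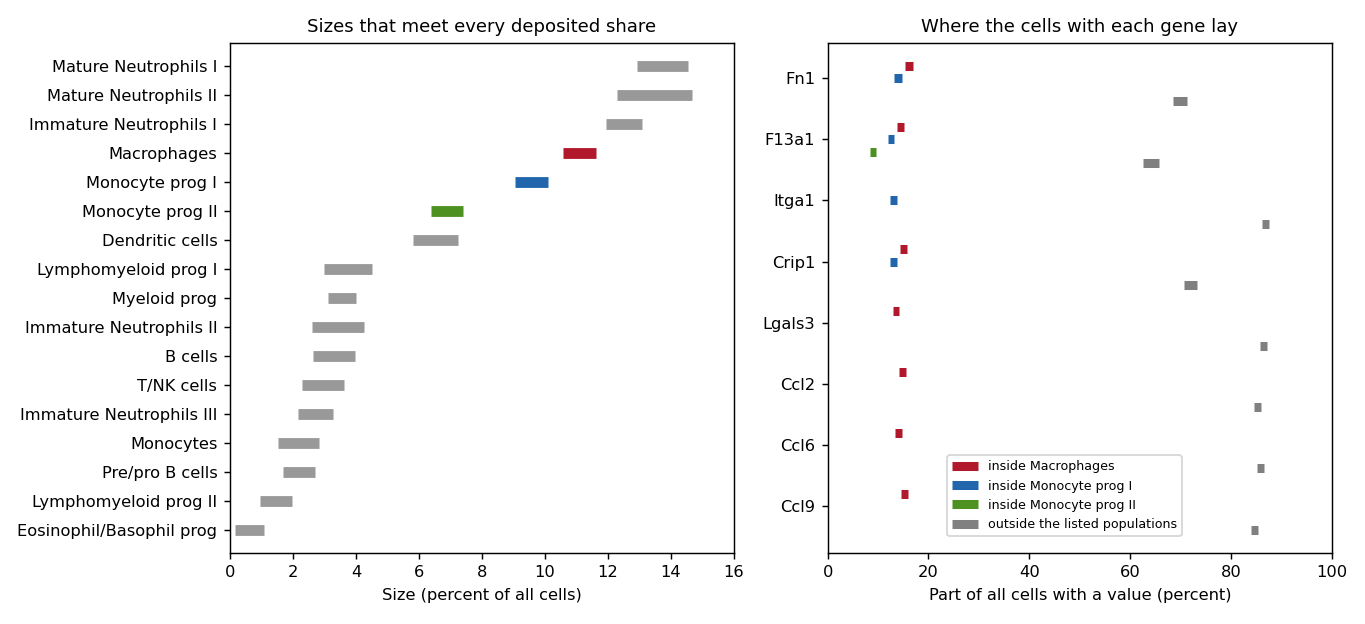
Left, the range of each population's size (percent of all cells) that meets the deposited shares of every entry. Right, the part of all cells with a value for each of the 8 genes (percent) that lay inside each listed population and outside all of them; bars span the range that rounding allows, and the grey bars run from 62.6% for F13a1 to 87.6% for Itga1.

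Listing in several populations was compared as a description. Of the 8 genes, 3 (37.5%) were listed for 2 or more populations, beside 50 of the 234 genes (21.4%). Macrophages and Monocyte prog I shared 5 genes, 25% of each list, of which 3 were Fn1, F13a1 and Crip1, and the others were Ifi30, a lysosomal thiol reductase, and Ms4a6c, a membrane protein of myeloid cells. Both were listed below the 3 in each population. F13a1 was the only gene that either population shared with Monocyte prog II. Macrophages shared 4 genes with Monocytes, Ctss, Ifi27l2a, Ms4a4c and Ms4a6c, and none of them is one of the 8.

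For each of the 8 genes, the genes with the most similar set of populations were looked up, with the mean difference in AUC to order ties. Fn1, Crip1 and Ifi30 had the same set, Macrophages and Monocyte prog I, with mean AUC differences of 0.023 for Fn1 and Crip1 and 0.021 for Crip1 and Ifi30. The genes nearest to F13a1 were the same 3, with an overlap of 0.667 (shared populations over all populations of either gene). Itga1 shared its set, Monocyte prog I alone, with 9 genes, and Lgals3 shared its set, Macrophages alone, with 11. Among such ties only the AUC picked the genes named, so no further likeness is read from them. For Itga1 these were Tubb5 (0.008), S100a10 (0.014) and Prc1 (0.019), of which Tubb5 and Prc1 are genes of dividing cells. For Lgals3 they were Wfdc17 (0.011), Npc2 (0.015) and Emilin2 (0.02). The chemokine genes, all listed for Macrophages alone, had mean AUC differences of 0.006 for Ccl6 and Ccl9, 0.015 for Ccl2 and Ccl9, and 0.021 for Ccl2 and Ccl6.

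In GENCODE M21 an exon of the gene overlaps another gene on the opposite strand for Fn1 (Apol7d), F13a1 (Gm49144 and Gm30489), Ccl2 (Gm17268) and Ccl6 (E230016K23Rik), and on the same strand for Itga1 (Gm49395). Whether these overlaps changed any value was not tested.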

How the data were processed

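Libraries were made with 10x Genomics 3' chemistry. Cell Ranger, Seurat 4 and the mm10 genome appear in the submitters' processing notes. The study's methods describe filtering of cells, integration of samples, clustering and a marker search with MAST, whereas the columns of the table are those of Seurat's receiver operating characteristic test. How doublets were treated is not stated in these sources. The AUC is a score that the authors computed for each gene and population with all mice pooled. The shares of cells were deposited as a fraction and are printed as percentages. The deposited average difference, power and log2 fold change of each population against all other cells are the authors' own comparisons and were not used.

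Entries of the 8 genes were taken by exact symbol. Share-only AUC was 0.5 + (share inside − share outside)/2. Population sizes were bounded by linear programming over the shares of all entries, which assumes that all shares were taken over the same cells. The method was also run on simulated cells for which this assumption holds by construction. That run checks the computation and cannot test the assumption. Windows were aligned locally with a match score of 2, a mismatch score of -3, a gap opening of -5 and a gap extension of -2. Gene positions are from GENCODE M21 (mm10) and sequences from RefSeq (GRCm38.p6). Python 3.11.15, pandas 2.3.3, NumPy 2.4.6, SciPy 1.17.1 and Biopython 1.88 were used. No test was run, because there is 1 pooled value per gene and population and the genes were chosen from these values.

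Members and the 19 gene lists (8 of pathways, 11 of cell type markers) were chosen with earlier results of these data known. Named genes were the 8 in every entry, up to 3 genes most like each, genes of the lists in the monocyte and macrophage populations with up to 3 more per list by AUC, rank neighbors, and the first and last genes of each list; 1 gene that this rule names is not reported here. The sample without a group label entered the authors' pooled values, as did the others.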

Additional observations from a re-analysis of the deposited data

How the results depend on the processing

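No paired analysis was possible because the table holds no column per sample, and leaving out replicates was not possible for the same reason. Of the genes listed for Macrophages, 4 remained among the 10 entries of highest AUC and 3 among the 10 of largest difference of shares, and the 1 entry of Monocyte prog II was lost (0) at an AUC of 0.85 or more and among its 10 highest. At an AUC of 0.85 or more, Macrophages listed 6 of the genes, without Ccl2, and the other such counts were unchanged. The order of populations for F13a1 was the same by AUC, difference and ratio of shares, but not by the share inside alone. For Fn1 the differences of shares lay within rounding and give no order. Rank within a population moved in 19 of 24 when shares replaced the AUC. Sizes depended on the genes used. With the sum of sizes left free, the middle of the range for Monocyte prog II was 7.47%. With only the 13 genes that Macrophages and Monocyte prog I share with other populations, the middles were 12.7% for Macrophages, 11.1% for Monocyte prog I, 8.40% for Monocyte prog II and 4.41% for Monocytes, as fewer genes leave wider ranges. Without the 8 genes the sizes moved by less than their ranges. The alternatives for sizes were chosen after seeing the data.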
